A study of Mus musculus with 6 samples.

Results

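Cytosolic ribosomal protein genes, the family whose products form the 2 subunits of the ribosome outside mitochondria, were compared between control and Rx-Dicer telencephalic primordia. Members were chosen by their gene symbol and by their raw counts over all libraries, without regard to genotype. The family itself was chosen with earlier results of these data known. They carried the name of a large-subunit (Rpl, Rplp) or small-subunit (Rps, Rpsa) protein without the pseudogene suffix and reached at least 10 raw counts in at least 3 samples. Of 55471 gene rows, 89 had such a name and 86 met the count minimum. The members were 48 large-subunit genes, 32 small-subunit genes and 6 rows with a ribosomal protein name that GENCODE annotates as processed pseudogenes (Rpl32l, Rpl6l, Rps12l1, Rps3a2, Rps3a3 and Rps4l).

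RNA was read from rostral telencephalic primordium dissected at E11.5 from mice, in 3 control and 3 Rx-Dicer libraries. Controls carried floxed Dicer (Dicer1tm1Bdh) on both alleles and no Cre, and their genotype label is WT. Rx-Dicer mutants (RxCre-Dicer F/F) carried the same floxed alleles and the Rx3-Cre transgene, so Cre was the difference between the groups. Rx3-Cre mice were kept on a CD1 background and floxed mice on C57BL/6, embryos of either sex were used, and it is not stated how many embryos a library held. Rx (Rax) regulatory sequences drive Cre in the early eye field and rostral forebrain, and not every cell of the dissected tissue need have lost Dicer.

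A ribosome is built from ribosomal RNA and one copy of most ribosomal proteins, so the genes of the family are usually transcribed at similar high rates. Their mRNAs are short and abundant, and many begin with a 5′ terminal oligopyrimidine (TOP) run, a C followed by pyrimidines, through which LARP1 and mTOR signalling control their translation and stability. Proliferating neuroepithelium makes many ribosomes, and free Rpl5 and Rpl11, bound to 5S rRNA, can inhibit MDM2 and thereby raise p53.

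The starts of 6 members are shown. They include genes with and without a pyrimidine run in the window, and with large and small differences between genotypes. Each line holds 30 bases in transcript orientation, 10 before the RefSeq start and 20 from it on, on build GRCm38.p6, and capitals mark a run of C followed by at least 6 pyrimidines. The windows lie at chr2:39005112-39005141 (Rpl35, minus strand), chr1:39367841-39367870 (Rpl31, plus), chr3:90213629-90213658 (Rps27, minus), chr1:72711250-72711279 (Rpl37a, plus), chr17:33824543-33824572 (Rps28, minus) and chr9:64173377-64173406 (Rpl4, plus).
Rpl35: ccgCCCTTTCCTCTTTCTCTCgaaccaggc
Rpl31: tcctcgCCTCCCCgtgacccggaagttgta
Rps27: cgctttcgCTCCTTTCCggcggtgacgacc
Rpl37a: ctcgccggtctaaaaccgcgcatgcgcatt
Rps28: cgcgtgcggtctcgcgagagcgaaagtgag
Rpl4: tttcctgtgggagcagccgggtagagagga

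The first 5 of these genes passed the test described below, and Rpl4 differed least among the well-counted members. RefSeq starts and the starts used in this tissue can lie apart, so a window without capitals says only that these letters were not in it. Windows were found for 61 of 86 members. Within 30 bases on either side of the start, 38 of the 61 members (62.3%) held such a run on the transcribed strand, against 29.7% of all 27025 genes in the table and 31.0% of 11242 other expressed protein-coding genes. On the opposite strand the shares were 26.2%, 33.7% and 34.8%. The run was thus commoner in the family on the transcribed strand and not on the other.

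Libraries held 34471501 to 48373468 counts on genes. Normalised counts are counts divided by the DESeq2 size factor of the library, and values are given in the order of replicates 1, 2 and 3. Dicer1, the targeted gene, had control values of 6355, 7070 and 6270 normalised counts and mutant values of 4777, 7002 and 4644, with a DESeq2 adjusted p of 0.567. The library labelled Rx-Dicer 2 was therefore at the control level for Dicer1, although counts over the whole gene include exons outside the deleted segment. All 8 markers of forebrain progenitors were expressed, with a summed level of 3606 to 3923 CPM (counts scaled to a common library total) in controls and 3325 to 3866 in mutants. Of these 8 markers, Six3 passed the DESeq2 test as higher (log2 fold change 1.27) and Pax6 and Fabp7 as lower (-0.43 and -0.76), and of 6 markers of new neurons 0 passed, with a median log2 fold change of -0.21 and 5 below 0. The part of these marker differences in the ribosomal protein result was not tested. The 5 Hox and hindbrain genes summed to at most 0.425 CPM. In bulk tissue, fewer cells of a type and less RNA per cell cannot be told apart.

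Members took 5.44, 6.05 and 5.96% of the counts on genes in controls 1 to 3, a mean of 5.82 ± 0.33% (SD, n = 3). They took 5.18, 3.998 and 4.84% in Rx-Dicer 1 to 3, a mean of 4.67 ± 0.61% (n = 3). Every mutant library lay below every control, and the library labelled Rx-Dicer 2 was the lowest. In the group means, large-subunit genes took 3.04% in controls and 2.46% in mutants, and small-subunit genes 2.76% and 2.20%, so the ratio of mutant to control was 0.809 and 0.796. Counting error was small beside these differences, since the exact 95% binomial interval of the highest share was 6.04 to 6.05%.

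**Figure D1:**
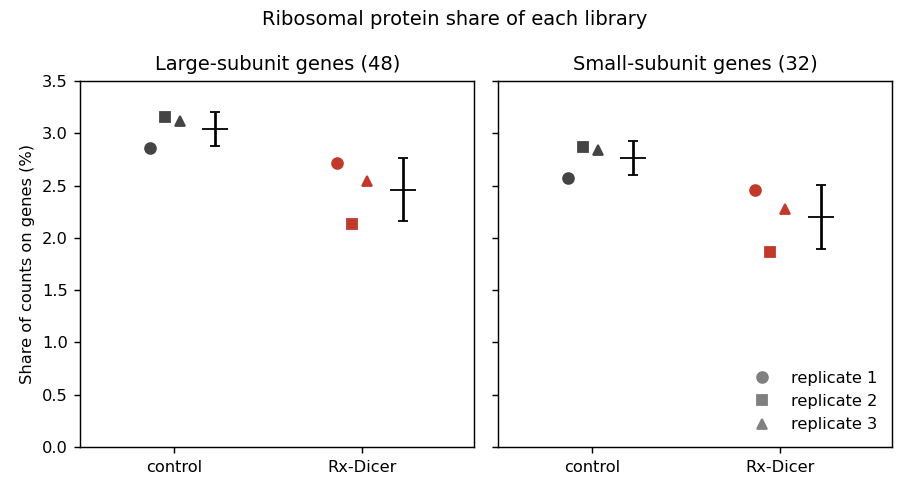
Share of the counts on genes (%, linear axis from 0) taken by the 48 large-subunit and 32 small-subunit genes in each library, with group mean and SD (n = 3). In both panels the Rx-Dicer libraries lie below the control libraries, and Rx-Dicer 2 lies lowest at 2.13% and 1.86%.

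The same difference was seen gene by gene and was moderate in size. A gene was called where DESeq2 gave an adjusted p under 0.05 and the log2 fold change exceeded 0.32 in size. By this rule 10 of 86 members (11.6%) were lower and 0 higher in Rx-Dicer mutants, against 1.18% of 17128 genes tested called lower and 1.75% called higher. At an unadjusted p under 0.05, 58 members (67.4%) were lower and 0 higher, against 5.80% of expressed genes lower. The log2 fold change was below 0 for 85 members (98.8%), against 49.8% of expressed genes. In 54 members (62.8%) all Rx-Dicer values lay below all control values, against 10.4% of expressed genes, and in the other 32 the groups overlapped.

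The median log2 fold change of the members was -0.33, which is 20.2% lower, with quartiles at -0.41 and -0.26. Over all expressed genes the median was 0.00079. Large-subunit genes had a median of -0.33 with 6 called, and small-subunit genes a median of -0.33 with 4 called. The difference was thus spread over both subunits, with small differences in 1 direction in most members. Members shifted together within libraries, with Rx-Dicer 2 the lowest library for 78 members and control 2 the highest for 57. Counts over members are therefore not counts of independent results, and the comparison rests on 3 libraries per genotype. The calls depended on the test: edgeR's quasi-likelihood test called 0 members and 0 of all genes lower (0.00%), its smallest adjusted p for a member was 0.151, and 50 members had an unadjusted p under 0.05, all lower, against 5.84% of expressed genes lower. Other thresholds moved the count as well, to 5 members without independent filtering (0.349% of all genes tested lower) and to 19 at an adjusted p under 0.1 (1.80%).

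**Figure D2:**
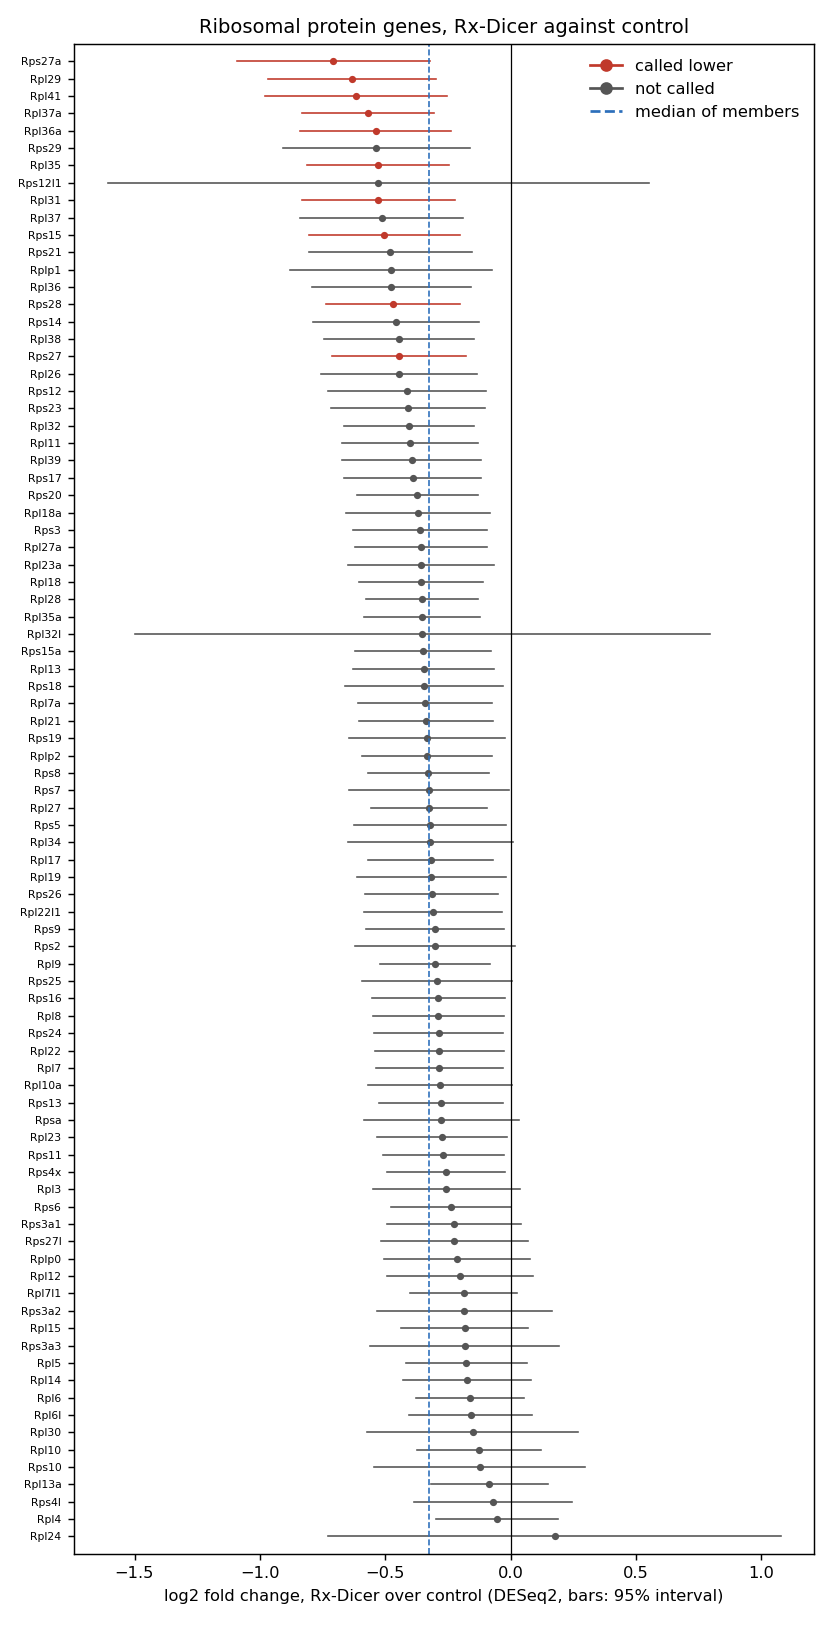
DESeq2 log2 fold change of each of the 86 members, Rx-Dicer over control, with 95% intervals; red marks the 10 members called lower and the dashed line the median of -0.33. Points lie left of 0 for 85 members, and the wide bars belong to the low-count rows Rps12l1, Rpl32l and Rpl24.

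Rpl37a, a large-subunit protein with a zinc finger (ENSMUSG00000046330, chromosome 1, 72711290 to 72713813, plus strand), had the smallest adjusted p. It had 21997, 23463 and 23567 normalised counts in controls and 17511, 12991 and 16014 in mutants. The groups did not overlap, the log2 fold change was -0.57 ± 0.13 (SE), and the DESeq2 adjusted p was 0.00289. It was called under 20 of 21 alternative settings, the exception being edgeR's test.

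Rps27a is made as a fusion of a small-subunit protein with ubiquitin and is one of the genes that feed the ubiquitin pool. It had the largest fold change of the family at -0.71 ± 0.20 on the log2 scale (DESeq2 adjusted p = 0.0195). Controls held 21458, 28759 and 27595 normalised counts and mutants 20506, 11493 and 15679. Control 1 and Rx-Dicer 1 lay close together, and the gap between the groups rested mainly on the other libraries.

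Rpl29, a large-subunit protein also known for binding heparin, had 8355, 9910 and 12775 normalised counts in controls and 7054, 7318 and 5650 in mutants. The log2 fold change was -0.63 ± 0.17 with a DESeq2 adjusted p of 0.0155. Here Rx-Dicer 3, not Rx-Dicer 2, was the lowest library. Rpl41, whose protein of 25 residues is the shortest of the ribosome, had 46357, 61381 and 56953 normalised counts in controls and 45745, 27327 and 34296 in mutants, and a log2 fold change of -0.62 ± 0.18 (DESeq2 adjusted p = 0.0366). Rpl41 resembled Rps27a in that control 1 and Rx-Dicer 1 were nearly level.

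Rpl35 and Rpl31 belong to the group of large-subunit proteins around the exit of the nascent peptide tunnel. Rpl35 had 26465, 29001 and 28793 normalised counts in controls and 22049, 15727 and 20631 in mutants, with a log2 fold change of -0.53 ± 0.14 (DESeq2 adjusted p = 0.0164). Rpl31 had 34777, 38902 and 38065 in controls and 31050, 20499 and 25951 in mutants, and also fell by 0.53 on the log2 scale, with a DESeq2 adjusted p of 0.0325. In both genes the mutant libraries kept the order Rx-Dicer 1, 3, 2 from high to low.

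Rpl36a, an X-linked large-subunit gene, had 14054, 15722 and 15689 normalised counts in controls and 12105, 8231 and 10980 in mutants (log2 fold change -0.54 ± 0.15, DESeq2 adjusted p = 0.0249). Among small-subunit genes, Rps28 had 16055, 17056 and 17347 in controls and 13592, 10119 and 12748 in mutants, and fell by 0.47 (DESeq2 adjusted p = 0.0288). In these 2 genes the groups did not overlap, and the mutants spread more than the controls. The SD was 954 in controls and 1993 in mutants for Rpl36a, and 678 and 1811 for Rps28.

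Rps27, another zinc-finger protein of the small subunit, had 22040, 22410 and 24092 normalised counts in controls and 18385, 13943 and 18015 in mutants, and its log2 fold change was -0.45 ± 0.14 (DESeq2 adjusted p = 0.0411). Rps15, a protein of the small-subunit head, had 42068, 49315 and 48293 in controls and 39117, 26505 and 32923 in mutants, with a log2 fold change of -0.50 ± 0.15 (DESeq2 adjusted p = 0.0431). Rps15 and Rps27 were the called members nearest to the threshold.

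The calls of these 10 genes were not equally stable. Apart from Rpl37a, Rpl35 was called lower under 16 of the 21 alternative settings, Rpl29 and Rpl36a under 13, Rps27a and Rps28 under 12, Rpl41 and Rps27 under 10, and Rpl31 and Rps15 under 9. All 10 had a negative log2 fold change under every one of these settings.

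**Figure D3:**
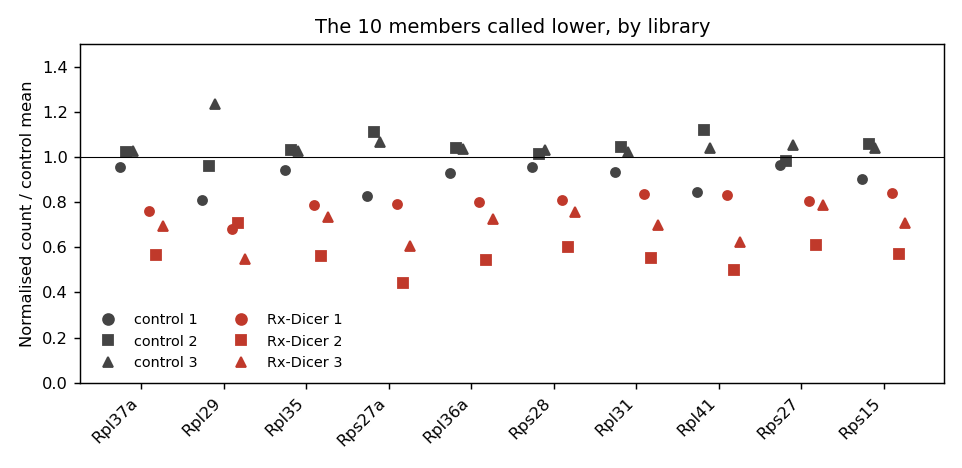
Normalised counts of the 10 members called lower, each divided by its own control mean, in the 3 control (grey) and 3 Rx-Dicer (red) libraries. For all 10 genes the red symbols lie below the grey ones, and Rx-Dicer 2 (square) is the lowest library except for Rpl29.

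The lowest place of Rx-Dicer 2 seen in most of these genes held for most of the family, while the order of Rx-Dicer 1 and 3 varied between members. The median deviation of the members from the control mean was -0.08, 0.06 and 0.02 on the log2 scale in controls 1 to 3, and -0.21, -0.57 and -0.23 in Rx-Dicer 1 to 3. The library labelled Rx-Dicer 2 was the lowest of the 6 for 78 members, and control 2 was the highest for 57. Without Rx-Dicer 2 the median log2 fold change was -0.21 and 6 members were called lower, against 1.22% of all genes tested. Without control 2 or control 3 only 1 member was called lower, against 0.607 and 0.534% of all genes, with medians of -0.29 and -0.32. Without Rx-Dicer 1 the median was -0.39 and 22 members were called lower, against 2.46% of all genes. The direction was thus shared by all mutant libraries, and the size and the number of calls depended on which libraries entered.

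The library labelled Rx-Dicer 2, which had the lowest ribosomal protein share, was at the control level for Dicer1, as given above. It also differed in other measures. Read pairs that fell in no annotated gene made up 10.7% of its read pairs, against 6.79 to 7.87% in controls and 7.54 and 8.32% in the other mutant libraries. Its 5 microglia and macrophage markers summed to 20.5 CPM, against 16.9 to 21.3 CPM in controls and 65.2 and 40.7 CPM in Rx-Dicer 1 and 3, with 2 of the 5 (Csf1r and Cx3cr1) called higher. The 10 erythroid markers summed to 10387 to 23374 CPM in controls and 8810 to 23223 CPM in mutants, and 0 of them passed the test. No marker of either list was at 0 in all libraries. The part of these differences in the ribosomal protein result was not tested.

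The size of the difference varied with the length of the gene product. Among the 10 genes that encode up to 100 residues, 4 were called lower, against 1.18% of all genes tested. Their median log2 fold change was -0.47. The medians were -0.35 for 28 genes of over 100 and up to 150 residues (4 called), -0.33 for 19 genes of over 150 and up to 200 residues (2 called) and -0.26 for 23 genes of over 200 residues (0 called). The called members had a median of 114.5 residues and a principal mRNA of 493.5 nt, against 157.5 residues and 766.5 nt for the 70 protein-coding members not called.

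Short mRNAs outside the family also had negative medians, nearer to 0. For principal mRNAs of up to 600 nt the median log2 fold change was -0.43 over 30 members and -0.17 over 237 other protein-coding genes. From 600 to 1000 nt it was -0.32 over 32 members and -0.18 over 743 others, and from 1000 to 2000 nt it was -0.27 over 16 members and -0.08 over 3214 others. Above 2000 nt the 10134 other genes had a median of 0.04. In the library labelled Rx-Dicer 2, the other genes of the 2 shortest classes deviated from the control mean by -0.41 and -0.33. In Rx-Dicer 1 and 3 they deviated by -0.15 and -0.12, and by -0.09 and -0.12.

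A correction of each sample for exon length and GC content left a median log2 fold change of -0.29 for the members and -0.05 for expressed genes, with 7 members called lower, against 0.979% of all genes. When the length of the principal mRNA was used, a choice made after the data had been seen, the medians were -0.19 and -0.05 and 3 members were called lower, against 0.806%. After these corrections the median of the members lay below that of expressed genes by 0.25 and 0.15 on the log2 scale. With the first correction and without Rx-Dicer 2, also chosen after the data had been seen, the medians were -0.20 and -0.05. The members then lay 0.145 below expressed genes, and 4 members were called lower, against 1.57%. The size of the difference thus moved with mRNA length and with 1 library, and their part in it beyond these values was not tested.

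**Figure D4:**
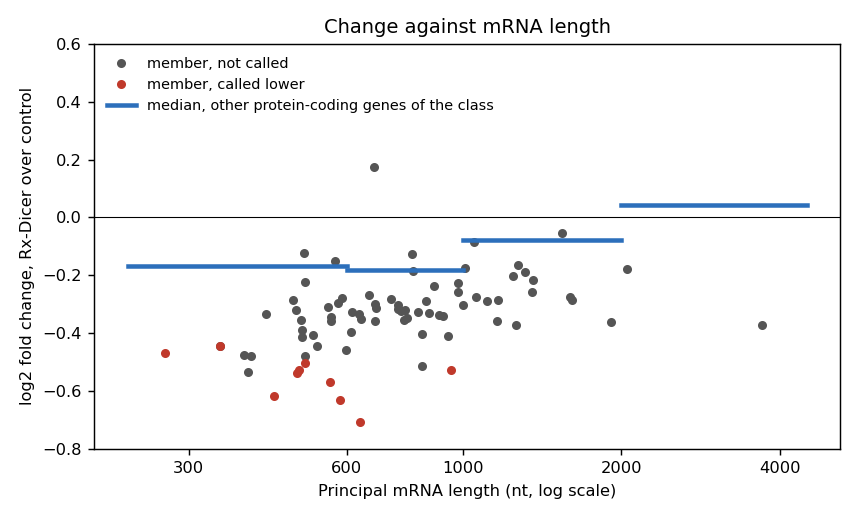
Log2 fold change of the 80 protein-coding members (points, red if called lower) against the length of the principal mRNA (log axis, nt), with blue lines for the median of other protein-coding genes in each of 4 length classes. Members lie mostly below the blue line of their class. The blue lines lie at -0.17, -0.18, -0.08 and 0.04 from the shortest class to the longest.

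Members of the acidic stalk and members with known roles outside general translation are given here by gene. In the acidic stalk, which recruits translation factors, Rplp1 had 45570, 66643 and 53503 normalised counts in controls and 50391, 27639 and 40992 in mutants, and a log2 fold change of -0.48 ± 0.21 that did not pass the test (DESeq2 adjusted p = 0.238). Rplp0, which anchors the stalk, had -0.21 (adjusted p = 0.617) and Rplp2 -0.33 (adjusted p = 0.179). Of the 3 genes only Rplp2 had groups that did not overlap.

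Of the pair that binds MDM2 with 5S rRNA, Rpl11 had 32049, 34990 and 34536 normalised counts in controls and 27657, 21000 and 28205 in mutants, with a log2 fold change of -0.40 ± 0.14 (DESeq2 adjusted p = 0.0921). Its partner Rpl5 had 49024, 52090 and 48984 in controls and 43497, 39325 and 49936 in mutants, with -0.18 ± 0.12 (adjusted p = 0.621). Neither passed the test, and the groups overlapped for Rpl5 alone. Rpl23 and Rpl26, other large-subunit proteins known to act on the p53 pathway, had -0.27 (adjusted p = 0.337) and -0.44 (adjusted p = 0.110).

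Rps6, the substrate of S6 kinase downstream of mTOR, had a log2 fold change of -0.24 (DESeq2 adjusted p = 0.390) without overlap of the groups. Rps19, the gene most often mutated in Diamond-Blackfan anaemia, had -0.33 (adjusted p = 0.320), and Rpsa, the laminin receptor precursor, had -0.28 (adjusted p = 0.477). Both had overlapping groups.

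A few members had values near no difference. Rpl4, with 419 residues the longest of the family, had 60312, 67588 and 63202 normalised counts in controls and 62388, 53753 and 67804 in mutants, and a log2 fold change of -0.06 with a 95% interval of -0.30 to 0.19. Rpl10, a late-joining protein of the large subunit, had -0.13 (DESeq2 adjusted p = 0.799). Rpl24 was the single member above 0, at 0.17 ± 0.46 (adjusted p = 0.958), on 26.9, 24.4 and 26.3 normalised counts in controls and 34.3, 26.5 and 26.6 in mutants.

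The low count of Rpl24 has an annotation beside it. Of the exon bases of its principal mRNA, 71.5% lie on the same strand within exons of another annotated gene (Gm28037), and reads there are tallied as ambiguous and given to neither gene. The same held for 91.6% of Rps10, which shares exons with RPS10-NUDT3, and for 59.3% of Rpl13a, which shares exons with Gm45713. Rps10 and Rpl13a had log2 fold changes of -0.12 and -0.09, so the 3 genes with most shared exon sequence were among the 6 members with the highest log2 fold changes. Their counts are uncertain.

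Levels per length were compared as CPM per kilobase of all annotated exons. Rplp1 was highest, with 2603 ± 457 in controls and 1893 ± 538 in mutants (mean ± SD, n = 3 each). Rps15 followed with 1740 ± 134 and 1243 ± 235, and Rps3a1 was next with 1322 ± 43 and 1142 ± 142. Rplp1 lay above Rps15 in every library, and in both genotypes their means differed by more than the SD of either. The ranges of mean ± SD overlapped in mutants and not in controls. On the principal mRNA Rpl41 came first, with 2956 ± 384 in controls, and 5 of the 10 highest members were shared between the orders. The order at the top thus depended on which isoform was assumed.

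The lowest levels per length belonged to Rpl24 (0.592 ± 0.039 CPM per kilobase in controls), Rpl32l (1.28 ± 0.42) and Rps12l1 (1.61 ± 0.55). The last pair was also nearest to the count minimum, with 11 to 28 raw counts for Rpl32l and 13 to 37 for Rps12l1. The 3 rows with a family name that failed the minimum were Rpl39l with 2 to 10 raw counts per library, Rpl3l with 0 to 4, and Rpl10l, which had no count. Every member had at least 11 counts in every library, so membership did not depend on the genotype with the higher level.

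Paralogues of ribosomal proteins were compared with the gene from which they derive, to see whether the makeup of the family differed. Rps27l, a paralogue of Rps27 known as a p53 target, had 4651, 4707 and 4648 normalised counts in controls and 4402, 3165 and 4422 in mutants (log2 fold change -0.22, DESeq2 adjusted p = 0.592). The log2 ratio of Rps27l to Rps27 was -2.24, -2.25 and -2.37 in controls and -2.06, -2.14 and -2.03 in mutants, so every mutant library had relatively more Rps27l. The difference was 0.21, with an exact two-sided permutation p of 0.1, the smallest that 3 against 3 samples allow, and 0.4 after Benjamini-Hochberg adjustment over 4 pairs.

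The other pairs had overlapping ratios. The ratio of Rpl22l1 to Rpl22, RNA-binding proteins of the large subunit that regulate one another, differed by -0.02 (exact permutation p = 0.9, adjusted 0.9), and its sign turned when control 1 or Rx-Dicer 1 was left out. The ratio of Rpl7l1 to Rpl7 differed by 0.10 and that of Rps4l to Rps4x by 0.20, each with an exact permutation p of 0.4 and 0.533 after adjustment. No ratio passed the test, and the smallest p the design allows is above the threshold.

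The 6 processed pseudogene rows took 0.0117 ± 0.0007% of counts in controls and 0.0108 ± 0.0005% in mutants. Their median log2 fold change was -0.18 and 0 were called, against 1.18% of all genes tested called lower. Rps4l had 1771, 1519 and 2110 normalised counts in controls and 1959, 1579 and 1600 in mutants, a log2 fold change of -0.07 whose sign depended on the setting. The 311 rows with a ribosomal pseudogene suffix, which are no members, took 0.203 ± 0.005% in controls and 0.168 ± 0.020% in mutants. Reads that fit a gene and its retrocopies equally well were not counted, and 5.62 to 6.65% of read pairs aligned to several places.

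Members with and without a run of C and at least 6 pyrimidines within 30 bases of the start were both lower in value. Such a run need not lie at the 5′ end of the mRNA, so the groups need not be TOP and non-TOP mRNAs. The median log2 fold change was -0.34 for the 38 members with a run, of which 4 were called, and -0.28 for the 23 without, of which 4 were called. Over all genes tested 1.18% were called lower. Among the starts shown above, Rpl35, Rpl31 and Rps27 hold a run in the printed letters and Rpl37a and Rps28 do not, although all 5 fell. The printed letters cover less sequence than was searched to form the groups. They therefore cannot show whether Rpl37a and Rps28 belong to the members without a run.

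Genes that make ribosomes without being part of them are given here by their counts and medians. Of 40 assembly factors, which process ribosomal RNA and mount the proteins on it, 0 passed the test in either direction, the median log2 fold change was 0.07 and 14 were below 0. Of 10 RNA polymerase I subunits and factors 0 passed, with a median of -0.03, and of 13 regulators of growth and of ribosomal protein mRNAs, such as Larp1, Mtor and Mycn, 0 passed, with a median of 0.05. Over all genes tested 1.75% were called higher and 1.18% lower, so lists of this size would hold few calls at that rate, and nothing is read from their absence. These lists were written with results of these data known.

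Fau and Rack1, ribosomal proteins whose symbols lie outside the naming rule, were also lower in value. Fau, which encodes a small-subunit protein fused to a ubiquitin-like protein, had 16514, 17694 and 18335 normalised counts in controls and 14234, 10465 and 13285 in mutants, and fell by 0.47 on the log2 scale (DESeq2 adjusted p = 0.0345). Rack1, a scaffold on the small subunit, had 44605, 53263 and 49412 in controls and 46586, 35693 and 43714 in mutants, and a log2 fold change of -0.23 that did not pass the test (DESeq2 adjusted p = 0.529). As in most of the family, Rx-Dicer 2 was the lowest library for Fau and for Rack1.

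Members lay on 19 chromosomes, with 15 on chromosome 7 and 4 on chromosome X. The X-linked members (Rpl10, Rpl36a, Rpl39 and Rps4x) had a median log2 fold change of -0.33. Of these 4, 1 was called lower, against 1.18% of all genes tested. The difference was thus found across the genome and not at 1 locus.

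**Figure D5:**
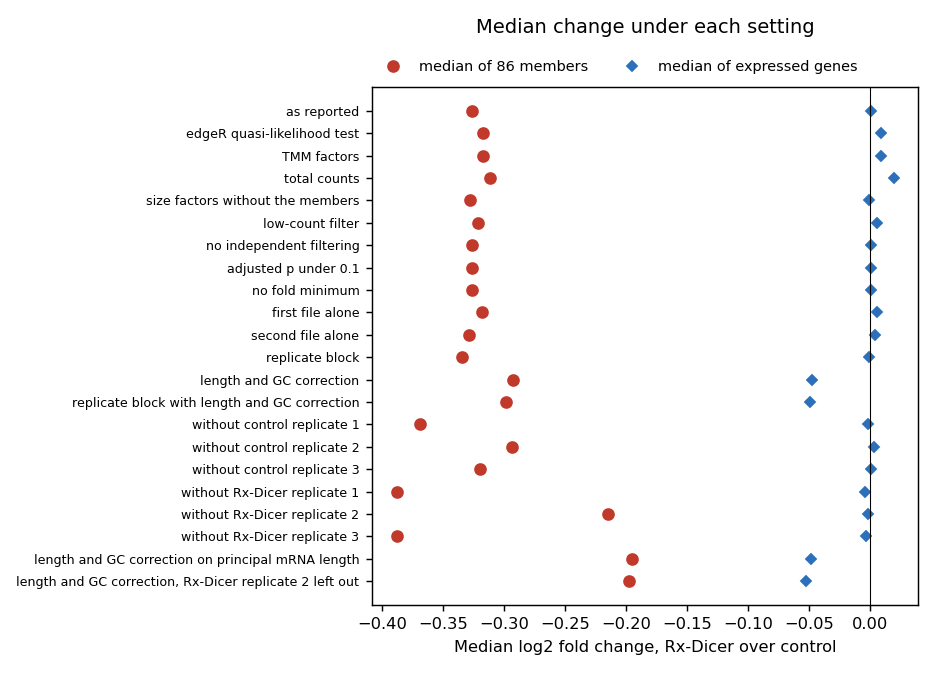
Median log2 fold change of the 86 members (red circles) and of expressed genes (blue diamonds) under each analysis setting, Rx-Dicer over control. The red circles range from -0.39 to -0.19 and all lie left of the blue diamonds, which stay between -0.05 and 0.02.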

How the data were processed

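Raw counts per Ensembl gene were analysed from 6 libraries, each deposited as 2 files. The authors made the deposited counts by trimming reads with Trim Galore 0.6.5, aligning them to GRCm38.p6 with HISAT2 and counting read pairs on the reverse strand with HTSeq 0.12.4 in union mode, so pairs that overlapped several genes or aligned to several places were given to no gene. Such pairs, and those in no gene, stayed out of library sizes and tests. The 2 files of a sample agreed nearly within counting noise (chi-square 1.13 to 1.52 per degree of freedom) and files of different samples did not (22.5 to 32.6), so files were summed and n was 3 per genotype. The p-values measure the spread between these samples.

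Genotypes were compared over all genes with DESeq2 1.42.0 in R 4.3.3, the tool the study used, with Benjamini-Hochberg adjustment. Members were called at adjusted p under 0.05 and a log2 fold change beyond 0.32 in size. edgeR 4.0.16 (quasi-likelihood test) was an alternative. Expressed genes had at least 10 counts in at least 3 samples. Length and GC were corrected by natural splines (5 degrees of freedom) fitted per sample to log2 of the normalised count plus 0.5. Lengths, residues and overlaps came from GENCODE M21, which held 55230 of the 55471 gene IDs, and start windows from RefSeq. Intervals on shares cover counting error only.

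Members and gene lists were chosen with earlier results of these data known. Members described by library were those called lower, the highest and lowest per length, paralogues with their parents, and members with known roles. Rpl4, Rpl13a and Rps10 were added after their values were seen. Both count tests were also run on simulated counts. There DESeq2 recovered more of the changed genes than edgeR, and a larger share of its calls was wrong. The 10 members called lower are DESeq2 calls. The values of 1 gene on these lists are not reported here.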

Additional observations from a re-analysis of the deposited data

Results flagged for a closer look

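Read pairs in no annotated gene, which no comparison used, made up 8.32% in the median Rx-Dicer library, above the highest control at 7.87%. The individual values were 7.54, 10.7 and 8.32% in Rx-Dicer 1 to 3 and 7.87, 6.79 and 7.19% in controls 1 to 3, so the groups overlapped.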

How the results depend on the processing

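The median log2 fold change of the members stayed negative under all 21 alternatives, from -0.39 to -0.19, and 0 members were called higher under any. The number called lower, 10 as reported, was 0 with edgeR's quasi-likelihood test, 5 without independent filtering, 19 at adjusted p under 0.1, 3 with the principal mRNA length and GC correction, and 4 with the length and GC correction when Rx-Dicer 2 was also left out, both chosen after the data had been seen. Leaving out 1 library gave 1 to 22. Calls over all genes, 502 as reported, were 8 with edgeR, 322 without independent filtering, 330 with the principal mRNA correction, and 285 to 637 when 1 library was left out. The cause was not tested. Of 714 comparisons of 34 named genes with 21 alternatives, 616 kept direction and side of the threshold, 86 fell short of it (10 genes), 6 passed it (6 genes) and 6 turned sign. Rpl24 turned to -0.056 with the first file of each sample alone. Rps4l turned to 0.093 with the length and GC correction, 0.10 with the block added, 0.092 on principal mRNA length and 0.084 with Rx-Dicer 2 also left out, and ranged from -0.18 to 0.059 when 1 library was left out. The log2 ratio of Rpl22l1 to Rpl22 ranged from -0.11 to 0.12 when 1 library was left out. The order by level shared 5 of the 10 highest members on principal mRNA length. Depth limits the rows with fewest counts.

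Replicate numbers are shared by the genotypes. The correlations of same-numbered samples' deviations were 0.17, 0.03 and -0.13, against -0.17 to 0.16 for samples of different number. With so few samples they cannot show whether same-numbered samples share a litter or batch. The test reported above treated the samples as unpaired. With the replicate block, 3 members were called lower. Of 17138 genes tested there, 314 were called, 87 lower and 227 higher. With block and length and GC correction together, 2 members were called lower. Of 17713 genes tested there, 295 were called, 114 lower and 181 higher.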
